A study of Mus musculus with 2 samples.

Results

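Aminoacyl-tRNA synthetases are the enzymes that join each amino acid to its transfer RNA, the step that lets the ribosome read the genetic code. Mammalian cells keep separate sets for the cytosol and for the mitochondrion, both made from nuclear genes, and several cytosolic enzymes sit together in a multisynthetase complex held by the scaffold proteins AIMP1, AIMP2 and EEF1E1. Many cytosolic synthetase genes are known targets of the transcription factor ATF4, which is made when amino acids run short. The members described here were the probe sets whose single annotated gene symbol has the form of a synthetase symbol, or is Eprs, Farsa, Farsb, Farsl1, Aimp1, Aimp2 or Eef1e1. They came to 76 of 45037 probe sets and 38 of 18193 genes. Of these, 19 genes encode cytosolic synthetases (40 probe sets), 16 encode mitochondrial synthetases (32 probe sets) and 3 encode scaffold proteins (4 probe sets). Farsl1 and Dars had no such probe set and were not analysed here, and 1 probe set shared by Aars and Exosc6 was left out. Gars and Kars were counted as cytosolic, although each is known to supply both compartments in mammals. Every gene matched was a synthetase or a scaffold protein, so none was excluded.

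The RNA came from bone marrow neutrophils, the short-lived phagocytes of the blood, of mice labelled Jdp2 KO and of mice labelled Jdp2 WT, both on a mixed C57BL/6 and 129/J background. Jdp2 encodes a leucine-zipper repressor that binds AP-1 and CRE sequences. The cells were sorted by flow cytometry as CD11b+ Ly6Clo Ly6G+, and age, treatment, the number of mice pooled and the design of the allele are not stated in the labels. Each genotype had 1 array, 2 in all, so no spread between mice could be estimated, no test was possible, and precision is limited throughout by the number of arrays. The arrays are called KO-labelled and WT-labelled. Values are log2 signals after RMA, a method that summarises the probes of a probe set, and a difference is the KO-labelled array minus the WT-labelled array.

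Of 16 listed neutrophil markers 12 were measured, and Ly6g, the gene of a sort marker, was among those not analysed here. The 12 lay between 10.67 and 14.51 on the KO-labelled array and between 11.09 and 14.54 on the WT-labelled array. Jdp2 did not read lower in the KO-labelled array, with 12.38 there and 11.997 in the WT-labelled array for probe set 1450350_a_at and with 5.40 in the KO-labelled array and 5.24 in the WT-labelled array for probe set 1424972_at. Whether these probes lie in the deleted part is not stated in the labels, so the targeted gene does not check the labels. Monocyte and macrophage markers mostly read higher in the KO-labelled array. Of 18 listed, 17 were measured and 16 passed the level filter described below. Of those, 15 had a difference above 0, beside 44.8% of all passing genes, and 11 were at least 2-fold higher, beside 3.06%. Of these 11, F13a1, Ms4a6c, C1qa and, named after its value was seen, C1qc had WT-labelled values under the array median. They passed only through the KO-labelled array. Once those values were set to the median, Ms4a6c (0.82), C1qa (0.78) and C1qc (0.83) were short of 2-fold, and F13a1 stood at 1.70. The summed level of the 17 measured markers, as log2, was 13.48 in the KO-labelled array and 12.80 in the WT-labelled array. RMA gives no zeros, and Irf8 was the only measured one below the filter. The 8 primary granule genes of immature neutrophils summed to 14.47 in the KO-labelled array and 13.94 in the WT-labelled array, sums that rest mainly on Srgn, at 13.98 in the KO-labelled array and 13.78 in the WT-labelled array. The granule enzyme genes Mpo (5.09), Ctsg (4.36), Elane (3.62) and Prtn3 (2.86) differed far more, and that of Mpo was the highest difference of all passing genes. In the WT-labelled array, whose median was 5.65, Ctsg read only 4.02 and Prtn3 only 4.41, so the sizes of both differences rest on weak signals. Raising these readings to that median gave 2.73 for Ctsg and 1.62 for Prtn3, still past 2-fold. The part of these other cells in the values below was not tested, and in bulk RNA fewer cells of a type and less RNA per cell cannot be told apart.

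The promoters of 5 cytosolic members carry the element through which ATF4 is known to act, and the promoter of Qars carries an AP-1 element of the kind that JDP2 binds. Of the 5, 4 are shown here, beside Qars, because ATF4 and JDP2 belong to the same broad family of leucine-zipper transcription factors. RefSeq promoter windows (GRCm38.p6, 300 bases, from 250 before to 50 after an annotated start) were found for 29 of the 38 genes. The 30-base stretches below run 5′ to 3′ along the gene, with the matched letters in capitals.
Gars, chr6:55037960-55037989, + strand: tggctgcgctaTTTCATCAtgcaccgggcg
Iars, chr13:49682126-49682155, + strand: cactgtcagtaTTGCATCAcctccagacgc
Tars, chr15:11399655-11399684, - strand: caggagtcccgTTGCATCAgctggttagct
Yars, chr4:129189895-129189924, + strand: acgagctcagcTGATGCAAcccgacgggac
Qars, chr9:108507912-108507941, + strand: cgctcgctctcTGACTCAtaaatggcgttg
The first 4 hold TGATGNAA, the core of the C/EBP-ATF response element, on either strand. The element was present in 5 of 31 member windows, all of cytosolic genes, and in 3.97% of 32851 windows over all genes. The AP-1 core TGANTCA, which reads the same on both strands, was in 1 member window and in 7.81% of all windows, and the CRE core TGACGTCA was in 0 member windows and 1.79% of all. None of these 3 motifs overlapped another. They were kept from 8 patterns searched in the same windows on both strands, after the matches had been seen. Of the 5 others, the stricter AP-1 core TGACTCA was in 1 member window, again that of Qars, and in 5.20% of all windows, and a core of the interferon-stimulated response element was in 1 member window, also of Qars, and 3.44% of all. The short run TGACG, which lies within the CRE core, was in 13 of the 31 member windows and 20.8% of all windows. The run TGATG, which opens the ATF4-type element, was in 12 member windows and 39.3% of all, and CCACG, from an element of the endoplasmic reticulum stress response, was in 17 and 32.8%. A match is a run of letters and says nothing of binding in these cells.

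No synthetase or scaffold gene that passed the level filter differed by 2-fold between the arrays. The probe set with the highest mean stood for each gene, and a gene passed when the higher of its 2 values reached the median of its array (5.67 for the KO label and 5.65 for the WT label). That left 31 of the 38 genes. Of these, 0 were at least 2-fold higher in the KO-labelled array and 0 at least 2-fold lower, where 3.06% and 2.33% of 11168 passing genes of all kinds were. At a smaller size, 1.5-fold, 1 member was higher and 5 were lower, beside 8.49% higher and 8.86% lower among all passing genes. The median difference of the 31 genes was 0.00, beside -0.04 for all passing genes, and 21 of the 31 (67.7%) lay within 0.3 of 0 in either direction, beside 58.6% of all passing genes.

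**Figure D1:**
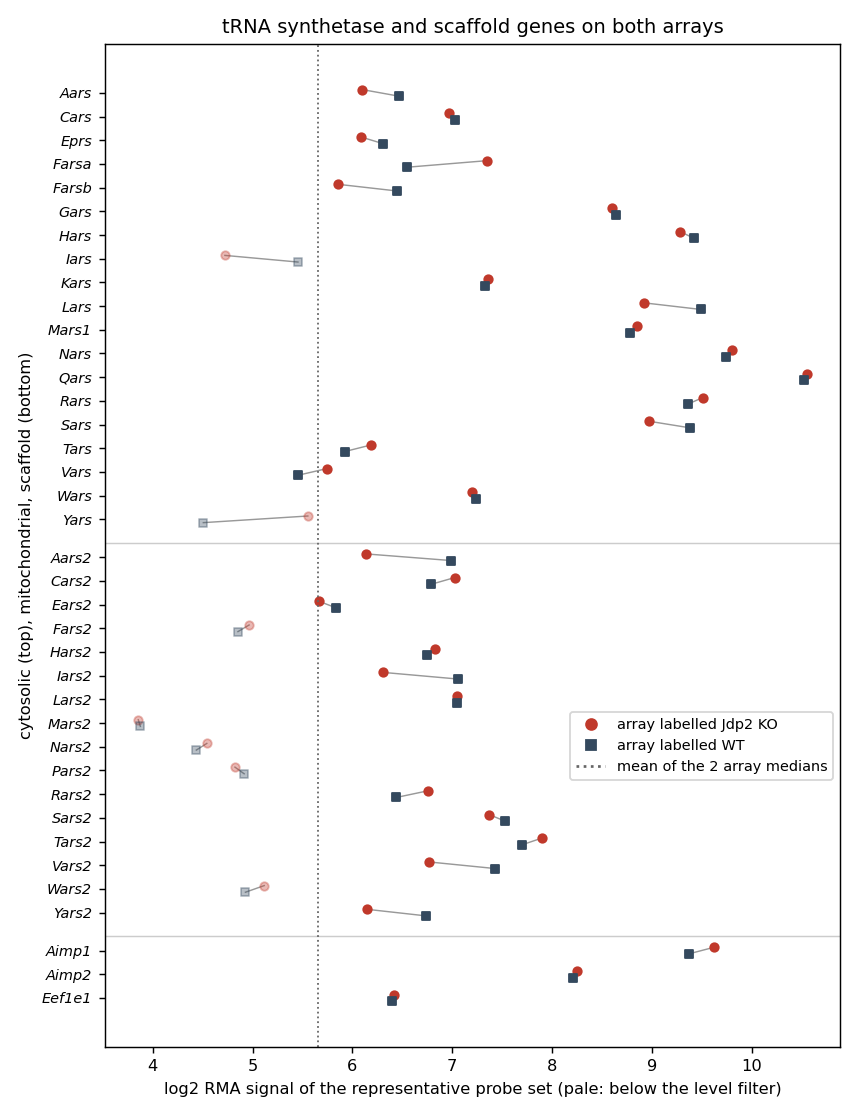
Log2 RMA signal (x axis) of the representative probe set of each of 38 genes (y axis), for the array labelled Jdp2 KO (red circles, upper of each pair) and the array labelled WT (dark squares), with the mean of the array medians dotted and genes below the level filter pale. Most pairs nearly coincide, and Aars2, Iars2, Vars2 and Yars2 sit to the left in the KO-labelled array. Signals of different probe sets are not comparable with each other.

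Most of the cytosolic set read almost the same on both arrays. Qars, which charges glutamine tRNA, read 10.56 in the KO-labelled array and 10.52 in the WT-labelled array, and its 3 passing probe sets ran from -0.01 to 0.03. Its AP-1 element shown above thus stood beside a difference of 0.03. Kars, for lysine, read 7.36 in the KO-labelled array and 7.33 in the WT-labelled array, and Mars1, for methionine, read 8.85 in the KO-labelled array and 8.78 in the WT-labelled array. Gars, for glycine, whose small difference changed sign with the scaling, read 8.602 in the KO-labelled array and 8.64 in the WT-labelled array. The enzymes Cars (cysteine, -0.06), Nars (asparagine, 0.06), Hars (histidine, -0.14) and Rars (arginine, 0.15), were also within 0.2 of 0. Wars, for tryptophan, is a known interferon-induced gene in human cells. It read 7.20 in the KO-labelled array and 7.24 in the WT-labelled array, although its 4 probe sets, all passing, ran from -0.11 to 0.34.

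Lars, Farsb and Sars were the lower members of the cytosolic set. Lars, which charges leucine tRNA and is known in human cells as a leucine sensor for the growth regulator mTORC1, read 8.92 in the KO-labelled array and 9.49 in the WT-labelled array, 1.49-fold lower on its only probe set. Sars, for serine, read 8.97 in the KO-labelled array and 9.39 in the WT-labelled array, and its second probe set differed by -0.13. Farsb encodes the beta subunit of the phenylalanine enzyme. It read 5.86 in the KO-labelled array and 6.45 in the WT-labelled array. Its difference of -0.59 lay just past 1.5-fold, where that of Lars, at -0.57, lay just short of it. Weaker probe sets of Farsb, below the filter, differed by -0.03, -0.26 and -0.56. Over the 17 passing cytosolic genes the median difference was -0.04, and it turned to 0.04 after quantile or loess scaling. Of the 17, 8 were above 0 and 9 below, beside 44.8% above 0 among all passing genes. Eprs, whose single chain carries both a glutamate and a proline enzyme, differed by -0.22, Tars by 0.26 and Vars by 0.29. The other passing probe set of Eprs differed by -0.08, and those below the filter by 0.19 and 0.51. The lower value of Vars lay under its array median, and its difference was 0.09 once that value was set to the median.

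Farsa and Aars had probe sets that disagreed. Farsa encodes the alpha subunit that pairs with FARSB. Its representative probe set 1446301_at read 7.35 in the KO-labelled array and 6.54 in the WT-labelled array, the only member that passed the filter and was at least 1.5-fold higher (1.75-fold). A second, 1440063_at, differed by 0.66 and another, 1445003_at, by 0.01. The WT-labelled value of 1440063_at, 5.33, lay under its array median of 5.65, so that probe set passed only through the KO-labelled array. The last, 1424907_a_at, was the only one annotated to a full-length cDNA record, and it read 6.43 in the KO-labelled array and 6.95 in the WT-labelled array, a difference of -0.52. The direction of Farsa is thus not settled by these data. For Aars, the alanine enzyme, probe set 1451083_s_at read 6.10 in the KO-labelled array and 6.47 in the WT-labelled array, while 1423685_at read 6.31 in the KO-labelled array and 5.48 in the WT-labelled array. The first of these represents the gene, at -0.37, and the other stood at 0.83. That other probe set also passed only through the KO-labelled array, so the size of its difference rests on a weak signal.

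Iars and Yars, with an ATF4-type element each, were below the level filter on both arrays, so their differences rest on weak signals. Iars, for isoleucine, read 4.72 in the KO-labelled array and 5.45 in the WT-labelled array. Yars, for tyrosine, whose secreted fragments are known to attract human leukocytes, read 5.55 in the KO-labelled array and 4.51 in the WT-labelled array, a difference of 1.05. The 4 genes shown with the element did not lie on 1 side of 0. Gars and Iars stood at -0.04 and -0.73, and Tars and Yars at 0.26 and 1.05.

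**Figure D2:**
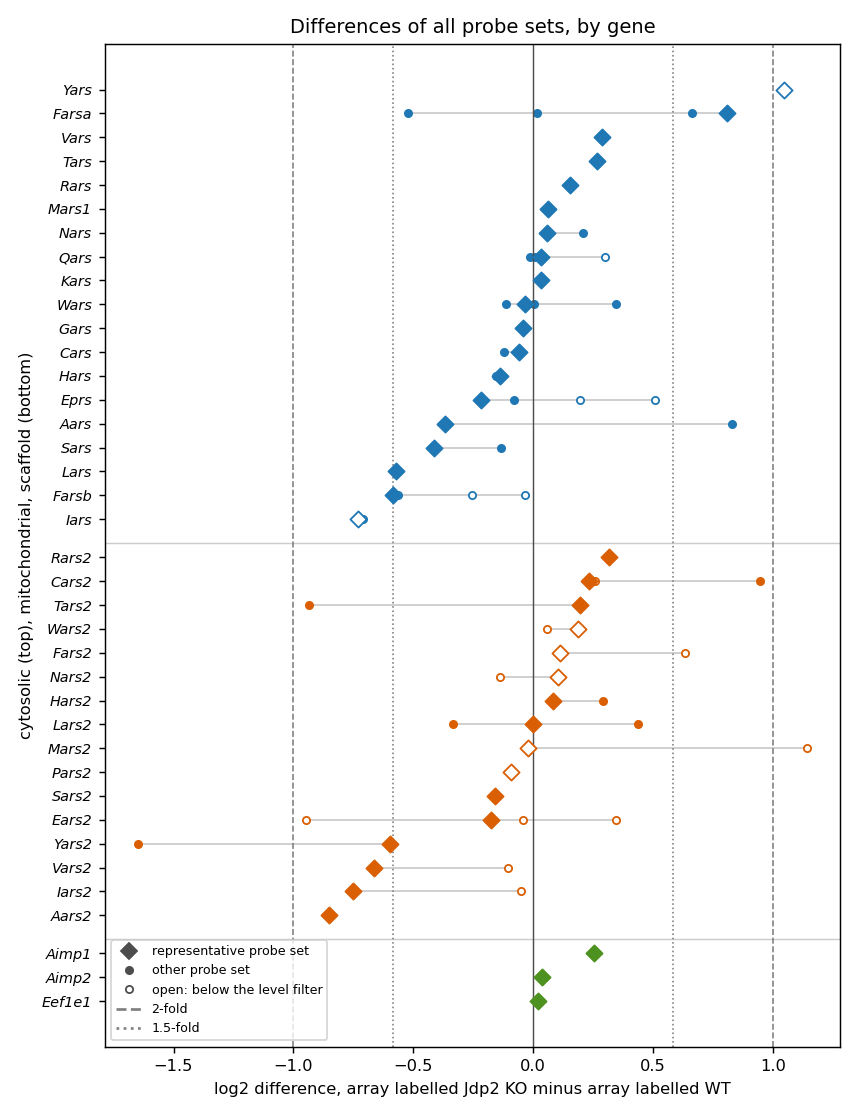
Log2 difference, array labelled Jdp2 KO minus array labelled WT (x axis), for all 76 probe sets, by gene (y axis), with diamonds for representative probe sets, circles for the others, open symbols for those below the level filter, and lines at 1.5-fold and 2-fold. Probe sets of Farsa, Aars, Tars2 and Lars2 lie on both sides of 0, and the lowest passing value is that of a Yars2 probe set at -1.65.

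Mitochondrial synthetases charge tRNAs for the proteins of the respiratory chain that mitochondrial DNA encodes, and mature neutrophils are known to hold few mitochondria and to draw mainly on glycolysis. Aars2, Iars2, Vars2 and Yars2 were lower in the KO-labelled array. Aars2, for alanine, read 6.14 in the KO-labelled array and 6.99 in the WT-labelled array, 1.81-fold lower. Iars2, for isoleucine, read 6.30 in the KO-labelled array and 7.05 in the WT-labelled array, 1.68-fold lower. For both genes the readings lay above the median of each array.

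Vars2, for valine, read 6.76 in the KO-labelled array and 7.43 in the WT-labelled array, 1.59-fold lower. Yars2, for tyrosine, read 6.14 in the KO-labelled array and 6.74 in the WT-labelled array, 1.51-fold lower on probe set 1439442_x_at. Its other probe set, 1430134_a_at, read 4.64 in the KO-labelled array and 6.28 in the WT-labelled array. That difference, -1.65, was the only 2-fold one among 52 passing member probe sets. Among 19604 passing probe sets of all genes, 2.33% were at least 2-fold lower. The KO-labelled value of 1430134_a_at lay under its array median of 5.67. This probe set thus passed only through the WT-labelled array, and the size of its difference rests on a weak signal. Of the 4 genes, Yars2 was the only one with a second passing probe set. Weaker probe sets of Iars2 and Vars2, below the filter, differed by -0.05 and -0.11.

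The other mitochondrial members did not follow these 4. Rars2, for arginine, read 6.76 in the KO-labelled array and 6.44 in the WT-labelled array. Cars2 (0.23), Tars2 (0.20) and Hars2 (0.08) were also above 0, Sars2 (-0.16) and Ears2 (-0.17) were below it, and Lars2 read 7.05 on both arrays. Probe sets of Tars2 ran from -0.93 to 0.20, those of Cars2 that passed from 0.23 to 0.95, and those of Lars2 from -0.34 to 0.44. The upper Cars2 value rests on a weak signal. Its probe set, 1454186_a_at, read 5.08 in the WT-labelled array, under the array median, and passed only through the KO-labelled array. Fars2, Mars2, Nars2, Pars2 and Wars2 were below the level filter, at -0.09 to 0.19. The median of the 11 passing mitochondrial genes was -0.16, with 4 above 0 and 7 at or below it, beside 44.8% above 0 among all passing genes. All 11 had a mean level under 8, and genes were therefore also counted by level, in bands chosen after seeing the data. Of these 11, 4 were at least 1.5-fold lower and 0 at least 1.5-fold higher, and of 9 cytosolic genes in that range 1 was lower and 1 higher, where 13.5% of all passing genes in the range were lower and 14.6% higher. At mean levels of 8 or above, 0 of 10 members reached 1.5-fold in either direction, beside 7.45% of genes.

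**Figure D3:**
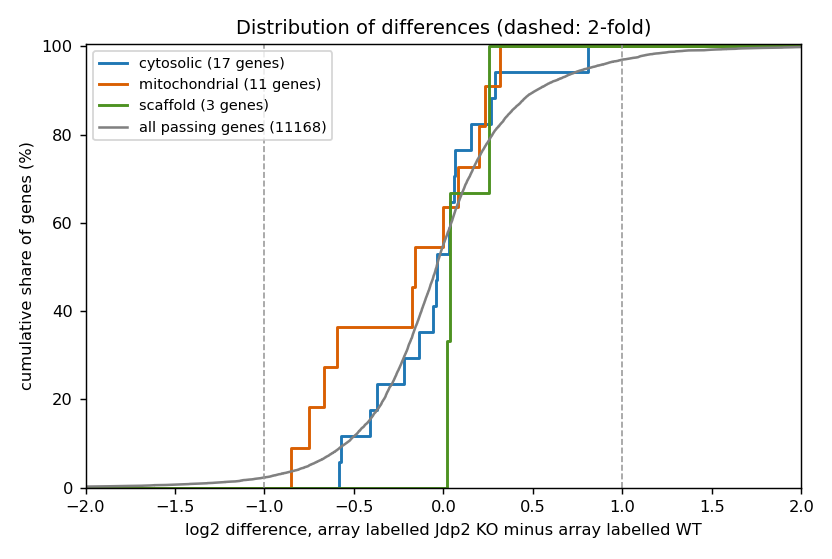
Cumulative share of genes (y axis, %) by log2 difference, array labelled Jdp2 KO minus array labelled WT (x axis), for passing cytosolic (17), mitochondrial (11) and scaffold (3) genes and for all 11168 passing genes (grey). The cytosolic curve runs close to the grey one, and the lower 4 mitochondrial genes lie between -0.85 and -0.60.

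Enzyme genes of the 2 compartments were paired by matching symbols, which gave pairs for 13 amino acids, and for 8 of these both genes passed the filter. Phenylalanine, glutamate and proline were not paired, because their cytosolic enzymes come from Farsa with Farsb, or from Eprs. Ears2 (-0.17) and Eprs (-0.22), both for glutamate and both passing, are thus outside the counts below. The mitochondrial difference was the lower one in 3 of these 8 pairs, and the median of mitochondrial minus cytosolic differences was 0.19. For valine the pair pointed apart, with Vars2 at -0.67 and Vars at 0.29. For alanine both representatives were below 0, with Aars2 at -0.85 and Aars at -0.37. For leucine the cytosolic gene was the lower one, with Lars2 at 0.00 and Lars at -0.57. For isoleucine both enzymes had nearly the same difference, Iars2 at -0.75 and Iars, with a weak signal, at -0.73. The 8 pairs had no common direction.

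**Figure D4:**
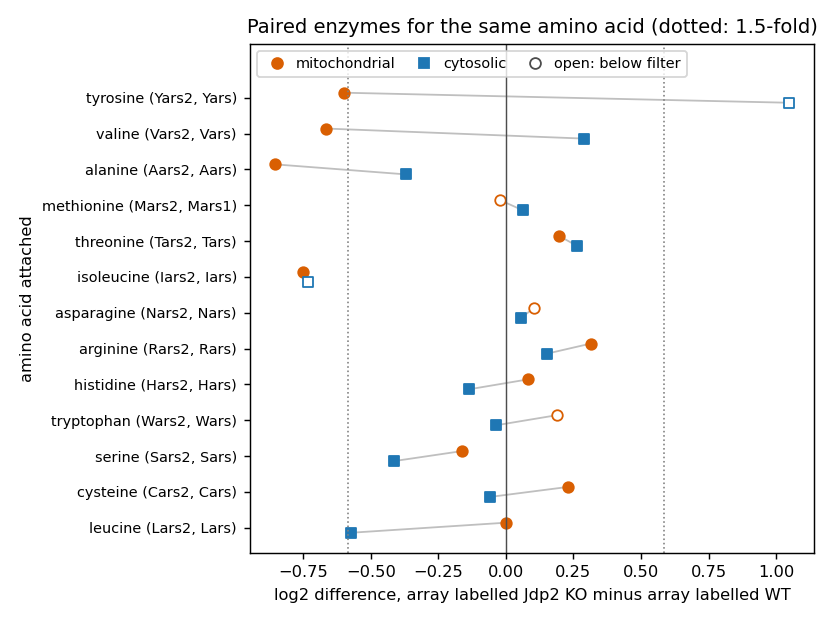
Log2 difference, array labelled Jdp2 KO minus array labelled WT (x axis), of the mitochondrial (circles, upper of each pair) and cytosolic (squares) enzyme for each of 13 amino acids (y axis), ordered by the gap between them, with open symbols below the level filter and dotted lines at 1.5-fold. Tyrosine and valine have the mitochondrial enzyme far to the left, and leucine has the cytosolic enzyme to the left.

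The scaffold of the multisynthetase complex was level. Aimp1, whose product is also the precursor of the cytokine EMAP II, read 9.63 in the KO-labelled array and 9.37 in the WT-labelled array. Aimp2 read 8.25 in the KO-labelled array and 8.21 in the WT-labelled array, and its second probe set differed by 0.03. Eef1e1 read 6.41 in the KO-labelled array and 6.39 in the WT-labelled array. With the synthetases of the complex, 9 of 11 listed genes passed, with a median of 0.03. Of the 9, 7 were above 0, beside 44.8% of all passing genes. By catalytic class, the median was 0.00 for 8 cytosolic genes of class I, Eprs included, and -0.04 for 9 of class II, and both were above 0 after quantile scaling (0.04 and 0.04).

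How far probe sets of 1 gene differ from each other sets a technical scale for these values. Among 15 member genes with at least 2 passing probe sets, 6 had differences on both sides of 0. The pooled SD of the difference over passing probe sets of a gene was 0.43 for members and 0.36 for all genes. The differences of Aars2, Iars2, Vars2, Yars2, Farsb and Lars were larger than 0.43, and those of the other cytosolic and mitochondrial representatives that passed, apart from Farsa, were smaller. This SD comes from shared RNA and does not measure the spread between mice. Over the 52 passing member probe sets, 7 were at least 1.5-fold lower and 4 at least 1.5-fold higher, beside 9.76% and 8.23% of all passing probe sets. Of the 7, 6 were among 17 mitochondrial probe sets and 1 among 31 cytosolic ones. Of the 4 higher, 1 was mitochondrial and 3 were cytosolic. Both Yars2 probe sets were among the 6, as was 1431125_a_at of Tars2, whose representative stood at 0.20. Among the 4 higher, 1423685_at of Aars, 1440063_at of Farsa and 1454186_a_at of Cars2 had WT-labelled values under the array median. They passed only through the KO-labelled array, as 1430134_a_at of Yars2 passed only through the WT-labelled array. The sizes of these differences rest on weak signals.

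Genes that act beside the synthetases gave a similar picture, with single exceptions. Mitochondria have no glutamine enzyme of their own and instead convert glutamate carried on the glutamine tRNA, which EARS2 loads, by an amidotransferase. Its subunit gene Gatc read 6.77 in the KO-labelled array and 7.90 in the WT-labelled array, a difference of -1.13. Its partners Gatb and Qrsl1 were named after their values were seen. Gatb differed by 0.04, and by 0.33 on a second probe set, and Qrsl1, below the level filter, by -0.52. The 12 listed charging genes outside the family had 7 passing members, of which 1 was at least 2-fold lower and 0 at least 2-fold higher, beside 2.33% and 3.06% of all passing genes, with a median of -0.17. Aarsd1, an editing protein related to the alanine enzyme, stood at -0.63, Dtd1, which removes D-amino acids from tRNA, at -0.32 and Prorsd1 at 0.30. Cytosolic elongation and tRNA export genes had a median of 0.07 over 6 genes, with Eef1a1, which brings charged tRNA to the ribosome, at 0.10, its exchange factor gene Eef1b2 at 0.30, Eif5a at 0.08 and the export factor Xpot at -0.08 on its representative probe set and -0.70 on the other. Mitochondrial translation factors had a median difference of -0.03 over 7 genes. That median was above 0 after quantile (0.0025) and loess (0.018) scaling. The initiation factor Mtif3 stood at 0.78, the elongation factor Gfm2 at -0.70, the release factor Mtrf1l at 0.18 and the recycling factor Mrrf at -0.17. The KO-labelled value of Gfm2 lay under its array median, and its difference was -0.53 once that value was set to the median. The other passing probe set of Gfm2 differed by -0.21.

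The amino acid response, which drives synthetase genes in starved cells, was split. Of 24 listed genes 23 passed, 4 were at least 2-fold higher and 1 at least 2-fold lower, beside 3.06% and 2.33% of all passing genes, and the median was -0.05. Slc7a5, the carrier of large neutral amino acids, read 8.43 in the KO-labelled array and 6.41 in the WT-labelled array. Ddit4 (1.22), which encodes an inhibitor of mTORC1, the stress-induced factor gene Atf3 (1.18) and, named after its value was seen, Shmt2 (1.14), a mitochondrial enzyme that handles serine and glycine, were the other higher genes, and Atf5 (-1.42) was the lower one. The KO-labelled value of Atf5 lay under its array median, and its difference was -0.33 once that value was set to the median, short of 2-fold. Atf4 itself, also named after its value was seen, read 12.03 in the KO-labelled array and 12.07 in the WT-labelled array. Asns, the asparagine synthetase gene and a standard ATF4 target, read 9.005 in the KO-labelled array and 9.91 in the WT-labelled array, and was named after its value was seen. Of the synthetases shown with the ATF4-type element, Gars (-0.04) and Tars (0.26) passed the filter, and Iars (-0.73) and Yars (1.05) did not. Whether the higher genes of this list bear on these synthetases was not tested.

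**Figure D5:**
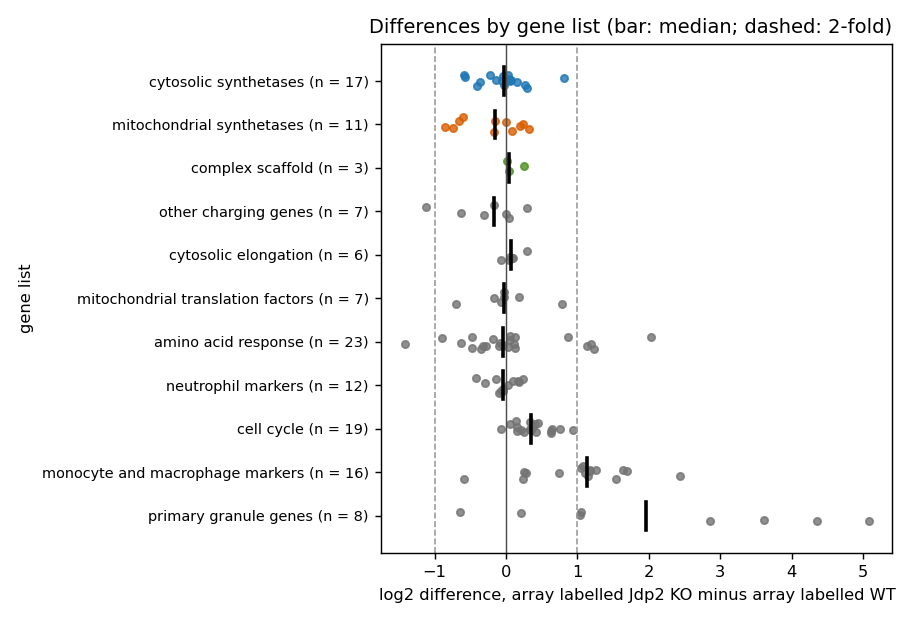
Log2 difference, array labelled Jdp2 KO minus array labelled WT (x axis), of the passing genes of each list (y axis), with a black bar at the median and dashed lines at 2-fold. Synthetase, scaffold and elongation genes lie inside 2-fold, and monocyte and primary granule genes lie mostly to the right.

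Among the lists of other cells and states, the median difference was 1.13 for monocyte and macrophage markers and 1.95 for primary granule genes. It was 0.35 for 19 cell cycle genes, 18 of them above 0, beside 44.8% of all passing genes. The primary granule median was 1.05 when both values had to reach the median, which left 5 of its 8 genes. It was also 1.05 with probe sets of mRNA or full-length cDNA records, which left 7. The median difference was 0.10 for 5 B cell, 0.30 for 5 T and NK cell and -0.04 for 12 neutrophil genes, and the B cell median had no settled direction, running from -0.62 to 0.61 over the alternatives. The 1 passing erythroid gene, Car2, stood at -1.29.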

How the data were processed

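Per the labels, total RNA of sorted neutrophils was labelled with biotin and hybridised to Affymetrix arrays. The submitters' processing notes name RMA, by which the authors made the deposited log2 values, 1 for each probe set. No label states its version or settings. RMA has no detection call, and weak signals hold background, which understates the folds of weak genes. Once sorted, the arrays were at most 0.117 apart, so their distributions nearly coincide.

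The 45101 probe sets included 64 controls, which were left out. Genes were named from the platform annotation, and symbols were updated by Entrez identifier against a GRCm38.p6 gene table. Of the rest, 34945 had 1 symbol. Differences were computed with Python 3.11.15 and pandas 2.3.3, and the steps were tested on simulated data. With 1 array per group there is no test, and genes were counted past 2-fold or 1.5-fold.

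The members, gene lists, motifs and size rules were chosen with earlier results of these data known. The text names every member, Jdp2 and up to 4 genes of each pathway list with the largest absolute difference among those that passed, and exceptions are marked where they stand. Alternatives were other level filters, scalings and choices of probe set. The stretch around 1 promoter match is not reported here.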

Additional observations from a re-analysis of the deposited data

How the results depend on the processing

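The cytosolic median (-0.04) was within 0.1 of that value under all 9 alternatives but changed sign with quantile normalization (0.04), loess (0.04), the mean of all probe sets (0.06) and without shared probe sets (0.06), so it has no settled direction. The mitochondrial median (-0.16) was -0.010 with no level filter, 0.20 with the filter at the 75th percentile, which left 1 gene, -0.26 with the mean of all probe sets, and 0.082 with probe sets of mRNA or full-length cDNA records, an alternative chosen after seeing the data, which left 5 genes. The scaffold median (0.04) was 0.15 at the 75th percentile, with 2 genes. At least 2-fold higher and lower genes (0 and 0) became 1 higher with no filter (Yars) and 1 lower with the mean of all probe sets (Yars2). The mean for Yars2 included a KO-labelled reading of 4.64, under its array median. Genes at least 1.5-fold higher (1) numbered 2 with no filter and without shared probe sets, and 0 at the 75th percentile, with the mean of all probe sets and with cDNA records. Without shared probe sets the added gene was Aars, on 1423685_at, whose WT-labelled value lay under its array median. Genes at least 1.5-fold lower (5) numbered 6 with no filter and with arrays centred on their medians, 0 at the 75th percentile, 3 with loess, 2 with the mean of all probe sets, 3 without shared probe sets and 1 with cDNA records. Mitochondrial genes among them (4) numbered 0 at the 75th percentile, 3 with loess, 2 with the mean and 3 without shared probe sets, where Yars2 had no value. With cDNA records they numbered 0, where none of the 4 has a passing probe set of such a record. Farsa reversed to -0.52 with cDNA records. Over all alternatives in which it passed and had a value, Aars2 ran from -0.87 to -0.83, Iars2 from -0.77 to -0.72, Vars2 from -0.68 to -0.39 and Yars2 from -1.12 to -0.58. With the mean of all probe sets Iars2 fell below the level filter, so its mean difference of -0.4 is not in that range. Genes left out by a filter or with no such probe set have no value there. The cause of other moves was not tested. No paired analysis was possible because each group had 1 array, and for the same reason none could be left out.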
